A study of Homo sapiens with 18 samples.

Results

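Clustered histone genes were taken as the rows of the deposited table of gene expression whose symbol begins with HIST1H, HIST2H, HIST3H or HIST4H, and they numbered 71 of the 26372 genes in the table. The rule used names only and no measured value. By histone type they were 6 genes of the linker histone H1, 17 of H2A, 20 of H2B, 14 of H3 and 14 of H4. They were measured by RNA-seq of total RNA freed of ribosomal RNA, in SH-SY5Y, a human neuroblastoma cell line that can be turned into neuron-like cells. Lentivirus built on the FUGW plasmid had brought ZNHIT3 into the cells, a gene that the study ties to snoRNP assembly, the joining of small nucleolar RNAs with their proteins. By their labels all 18 libraries carry such a construct, and there is no uninfected group.

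The 6 groups were the wild-type sequence (WT), the C14R substitution and a deletion, each at day 0 and at day 18, with 3 libraries in each. The treatment labels of the deletion give the span as 251-254 for replicate 1, as 251-255 for replicate 2 and as 251-256 for replicate 3, while the titles call the libraries depleted and the design text names 251-254 alone. They were analysed as 1 group. Day 18 libraries came after 18 days in serum-free Neurobasal/B27 medium that held retinoic acid (all-trans, 10 µM), BDNF (50 ng/ml), dibutyryl cyclic AMP (2 mM) and KCl (20 mM), which was begun 48 hours after infection. The labels do not say that the endogenous ZNHIT3 was removed, nor whether the 3 libraries of a group came from separate cultures, so p-values measure only the spread between these libraries. Replicate 1 of C14R at day 18 stands apart from the rest over all genes, and the counts of C14R at day 18 were recomputed without it, with those that changed given beside the result. Delivered and endogenous ZNHIT3 share 1 row, which lay at 530.6 to 542 FPKM in WT, 418.9 to 432 in C14R and 292 to 310.1 in deletion libraries at day 0, and at 1103 to 1193, 599.7 to 755.8 and 294.3 to 312.8 at day 18.

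Histones package DNA into nucleosomes. Pairs of H2A, H2B, H3 and H4 form the core around which DNA is wrapped, and H1 binds the linker DNA between cores. Most copies lie in clusters, and they are copied into RNA mainly while a cell replicates its DNA. Their messenger RNAs as a rule have no introns and no poly(A) tail: they end in a short stem-loop that is bound by the protein SLBP and is needed for processing at the 3' end, and the RNAs are degraded when replication stops. A library made from total RNA, as here, can hold such tailless transcripts, which selection by poly(A) would lose.

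The stem-loop is shown first because it is the sequence that sets these RNAs apart. The histone stem-loop pattern, a stem, a loop and the returning stem with a few positions left free, was searched on the sense strand of the GENCODE 29 transcripts on GRCh38, to which all 71 genes matched by symbol. It was found in 30 genes and in 14 of 206570 transcripts of other genes (0.00678%). The search reaches only annotated ends. Only 35 of the 71 genes have an annotated untranslated region of at least 30 nucleotides, and 29 of these 35 hold it. It came in 5 forms, written 5' to 3' with the stem in capitals and the loop in lower case.
Stem-loop of 16 genes of H2A, H2B and H3: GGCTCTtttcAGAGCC
Stem-loop of 5 genes of H4: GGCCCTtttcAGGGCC
Stem-loop of 5 genes of H2B and H3: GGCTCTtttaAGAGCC
Stem-loop of 2 genes of H4: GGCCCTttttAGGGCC
Stem-loop of 2 genes of H2A and H2B: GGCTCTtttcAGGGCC
All 7 H4 genes with an annotated stem-loop had a stem that begins GGCCCT, and the 23 other genes had one that begins GGCTCT.

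Promoters were compared next, since copies with and without RNA could differ there. A RefSeq promoter (GRCh38.p14, 250 bases before to 50 after the start) was given for 63 of the 71 genes. Exact letters were searched on both strands. CCAAT was found in 54 of the 63 (85.7%) against 35.4% of all 27305 promoters, TATAAA in 42 (66.7%) against 12.3%, and the octamer ATTTGCAT, the letters that octamer-binding POU factors are known to read, in 25 (39.7%) against 1.83%. The octamer was found only in H2A (11 of 15) and H2B (14 of 18) promoters. CCAAT was found in every H1, H2A, H2B and H3 promoter given, and in 3 of the 12 for H4. The stretches below end at the base before the RefSeq start and run 5' to 3' on the gene's strand. Capitals mark these same motifs, on either strand. The first 4 belong to copies with no value or values under 3 FPKM, and the last 4 to copies with a mean over 100 FPKM in WT at day 0.
HIST1H2AA: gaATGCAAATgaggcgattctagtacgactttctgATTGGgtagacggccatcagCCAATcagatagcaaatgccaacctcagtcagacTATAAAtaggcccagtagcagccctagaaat
HIST1H2BA: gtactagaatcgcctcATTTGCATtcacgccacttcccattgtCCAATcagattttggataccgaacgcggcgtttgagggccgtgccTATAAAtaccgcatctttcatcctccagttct
HIST1H4G: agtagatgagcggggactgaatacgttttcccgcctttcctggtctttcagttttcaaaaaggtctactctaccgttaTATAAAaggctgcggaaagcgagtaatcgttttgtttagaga
HIST3H3: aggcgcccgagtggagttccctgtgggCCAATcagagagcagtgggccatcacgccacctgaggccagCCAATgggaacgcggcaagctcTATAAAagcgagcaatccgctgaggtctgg
HIST1H2BK: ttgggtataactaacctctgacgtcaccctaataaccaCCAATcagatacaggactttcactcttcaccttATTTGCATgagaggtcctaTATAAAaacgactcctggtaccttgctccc
HIST1H1B: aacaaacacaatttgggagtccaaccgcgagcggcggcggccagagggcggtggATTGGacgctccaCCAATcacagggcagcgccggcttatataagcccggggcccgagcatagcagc
HIST1H3B: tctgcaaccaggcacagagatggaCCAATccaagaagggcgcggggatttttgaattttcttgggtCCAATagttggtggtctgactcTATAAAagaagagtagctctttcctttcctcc
HIST1H4B: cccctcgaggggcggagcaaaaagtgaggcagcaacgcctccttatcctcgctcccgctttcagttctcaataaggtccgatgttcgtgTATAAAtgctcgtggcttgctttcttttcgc
These lie at chr6:25726563-25726682 (minus strand), chr6:25726657-25726776 (plus strand), chr6:26246997-26247116 (minus strand), chr1:228425361-228425480 (minus strand), chr6:27146856-27146975 (minus strand), chr6:27867589-27867708 (minus strand), chr6:26032100-26032219 (minus strand) and chr6:26027284-26027403 (minus strand). The stretches of HIST1H2AA and HIST1H2BA overlap, because both genes start from the same short region in opposite directions. A match is a description of letters and not a binding site.

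Most copies had RNA. A value above 0 was found in all 18 libraries for 61 of the 71 genes, in some libraries for 7, and in none for 3. By type, 5 of 6 H1, 14 of 17 H2A, 19 of 20 H2B, 11 of 14 H3 and 12 of 14 H4 genes had a value throughout. By position, these were 51 of the 56 HIST1 genes on chromosome 6, 7 of the 11 HIST2 genes and 2 of the 3 HIST3 genes on chromosome 1, and the single HIST4 gene, HIST4H4, on chromosome 12. In GENCODE 29 the HIST1 genes span positions 25726132 to 27893843 of chromosome 6. Over the whole annotation, 19 further symbols of this kind have no row in the deposited table, among them HIST2H2AA4 and HIST2H4A. The values are FPKM, in which each gene's fragments are divided by transcript length and by library size. The lengths used are not stated, and annotated lengths in GENCODE 29 differ widely, with 312 nucleotides for HIST1H4D and 2411 for HIST1H3G. Orders and shares among different genes therefore depend on lengths that are not known here. The 10 genes without a value in every library never passed 2.83 FPKM.

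**Figure D1:**
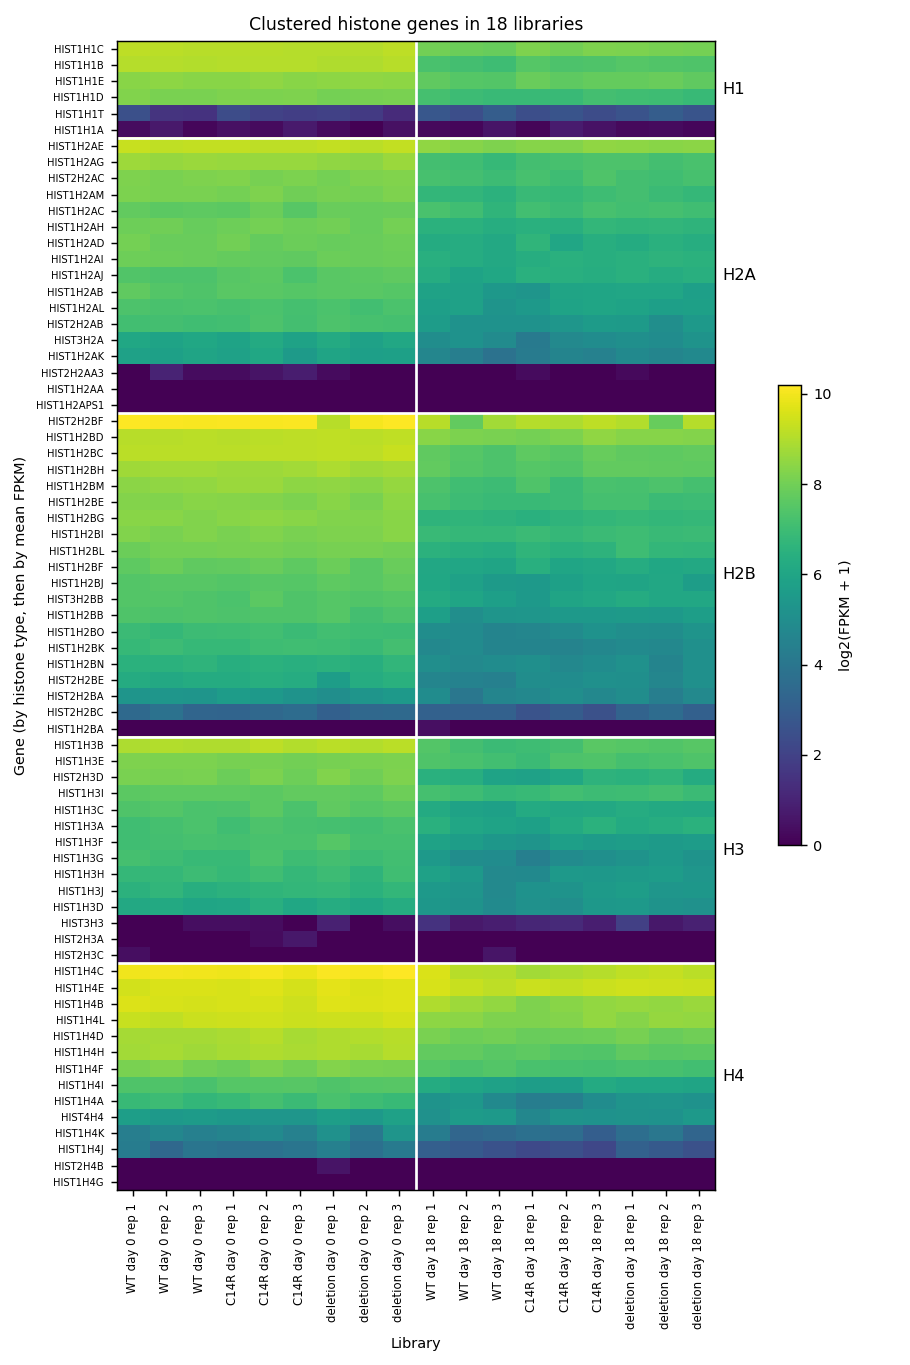
Level of the 71 clustered histone genes (rows, ordered by histone type and then by mean FPKM) in the 18 libraries (columns, day 0 on the left and day 18 on the right), as log2(FPKM + 1) by colour. Most rows turn darker from day 0 to day 18 in all 3 lines, and the 10 dark rows at the foot of the types are copies with no value in at least 1 library.

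The 10 copies without a value throughout fell into 2 kinds by sequence. Transcripts were divided into all windows of 50 letters, and a window was counted as unique when no transcript of another gene in GENCODE 29 holds it. HIST2H2AA3, HIST2H3A and HIST2H3C had no unique window, and HIST2H4B had 4.9%. HIST2H2AA3 shared all its windows with HIST2H2AA4, HIST2H3A and HIST2H3C are identical over 1656 nucleotides, and HIST2H4B shared windows with HIST2H4A. A read that lies wholly in shared windows fits both twins, and the handling of such reads is not stated. Their values say nothing firm about the copies: HIST2H2AA3 had a value in 8 libraries (at most 1 FPKM), HIST2H3A in 2, HIST2H3C in 2 and HIST2H4B in 1. The other 6 copies had 100% unique windows, so no other annotated transcript holds a window of theirs.

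These 6 unique copies were HIST1H2AA, HIST1H2BA, HIST1H1A, HIST1H4G, HIST1H2APS1 and HIST3H3. HIST1H2AA and HIST1H2BA encode H2A and H2B forms known mainly from testis, and they lie head to head 250 bases apart at the end of the chromosome 6 cluster. HIST1H2AA was listed at 0 in all 18 libraries, and HIST1H2BA had a value in 1, at 0.328 FPKM in WT replicate 1 of day 18. Their promoters hold all 3 motifs, as shown above. The pseudogene HIST1H2APS1 and the H4-like HIST1H4G were listed at 0 in all libraries as well. HIST1H1A, which encodes H1.1, was above 0 in 17 libraries but never above 0.699 FPKM.

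HIST3H3 encodes the H3 form known from testis. Its values in WT went from 0, 0 and 0.311 FPKM to 1.82, 0.62 and 0.804. In C14R they went from 0.309, 0.269 and 0 to 1.11, 1.3 and 0.801, and in the deletion from 0.886, 0 and 0.295 to 2.83, 0.576 and 0.935. The WT and C14R groups of day 18 lay above those of day 0 without overlap, and the deletion groups overlapped. With a mean under 1 FPKM it was not tested.

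A low share of unique windows did not always go with a missing value. Of the 61 copies with a value throughout, 3 also had under 10% unique windows. HIST1H4K, whose windows are all held by HIST1H4J, had 19.4, 24.9 and 20.4 FPKM in WT at day 0. All 362 windows of HIST1H3D and 337 of the 344 of HIST1H2AD are held by AL031777.3. That gene overlaps both at the same position, so this sharing is between overlapping genes and not between separate copies. Motifs were found in promoters of both classes. CCAAT was found in 7 of the 9 promoters of copies without a value throughout (77.8%) and in 47 of the 54 of the others (87%), TATAAA in 8 of 9 (88.9%) and 34 of 54 (63%), and the octamer in 2 of 9 (22.2%) and 23 of 54 (42.6%). These shares are over 9 promoters and were not tested. Among the 9 are the promoters of the 4 HIST2 copies with under 10% unique windows, whose values say nothing firm. Only H2A and H2B promoters hold the octamer, so its share also depends on the mix of types. Within these types it was found in 1 of 2 H2A and 1 of 1 H2B promoters of copies without a value throughout. For copies with a value throughout it was 10 of 13 and 13 of 17. The division of reads among near-identical copies by the submitters' software is not stated, so the value of any 1 of them is uncertain.

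At day 0 in WT, 49 of the 61 copies had a mean of at least 100 FPKM, 10 of at least 500 and 2 of at least 1000. The highest 5 held 24.9% of the summed level of all 71: HIST2H2BF, HIST1H4C, HIST1H4B, HIST1H4E and HIST1H4L. HIST1H4C, an H4 gene on chromosome 6 at 26103876 to 26104310, had 1008, 1026 and 1001 FPKM in WT libraries of day 0. HIST1H2AE was the most abundant H2A gene (636, 594 and 600.5), HIST1H1C, which encodes H1.2, the most abundant H1 gene (576, 554 and 547), and HIST1H3B the most abundant H3 gene (480.3, 507 and 496). At the other end, HIST1H1T had 4.65, 1.87 and 1.84 FPKM. The order of the copies was alike on both days: across the 61 genes, log2 mean levels in WT at day 0 and day 18 had Pearson r = 0.94, a description over genes of the same libraries.

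From day 0 to day 18, nearly every clustered histone gene fell. In WT, 59 of the 61 tested copies fell, HIST1H1T rose and HIST4H4 did not pass the threshold, where 34% of all 13785 tested genes fell and 38.2% rose. In C14R, 60 fell and HIST1H1T did not pass (35% of all genes fell and 37.9% rose). Without C14R replicate 1 of day 18, 59 fell in C14R, because HIST4H4 lost its call. In the deletion, 59 fell, HIST1H1T rose and HIST2H2BC did not pass (34.4% of all genes fell and 38.6% rose). The same 58 genes fell in all 3 lines. The tests were limma models of log2(FPKM + 1) with Benjamini-Hochberg adjustment over all tested genes and a threshold of 0.05, and every log2 change given here is on that scale, day 18 minus day 0.

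The median copy changed by -1.35 in WT, -1.33 in C14R and -1.24 in the deletion, where the median over all tested genes was 0.03, 0.02 and 0.03. Its mean level at day 18 was 39.3% of day 0 in WT, 39.3% in C14R and 41.9% in the deletion. All 9 libraries of day 18 lay below all 9 of day 0 for 55 of the 61 copies, against 26.9% of all tested genes. The exceptions were HIST1H1T, HIST1H4E, HIST1H4K, HIST2H2BC, HIST2H2BF and HIST4H4. Day and differentiation medium changed together, so their parts cannot be told apart. In these bulk libraries, fewer cells that replicate DNA and less histone RNA per cell cannot be told apart either. Leaving out 2363 small RNA genes and rescaling moved the median of all genes to 0.21, 0.18 and 0.22, and the median copy to -1.14, -1.15 and -1.01, with 56, 57 and 56 copies lower. The share of calls that were higher moved with it, from 52.9%, 52.0% and 52.8% of all called genes to 68.5%, 66.3% and 69.3%.

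**Figure D2:**
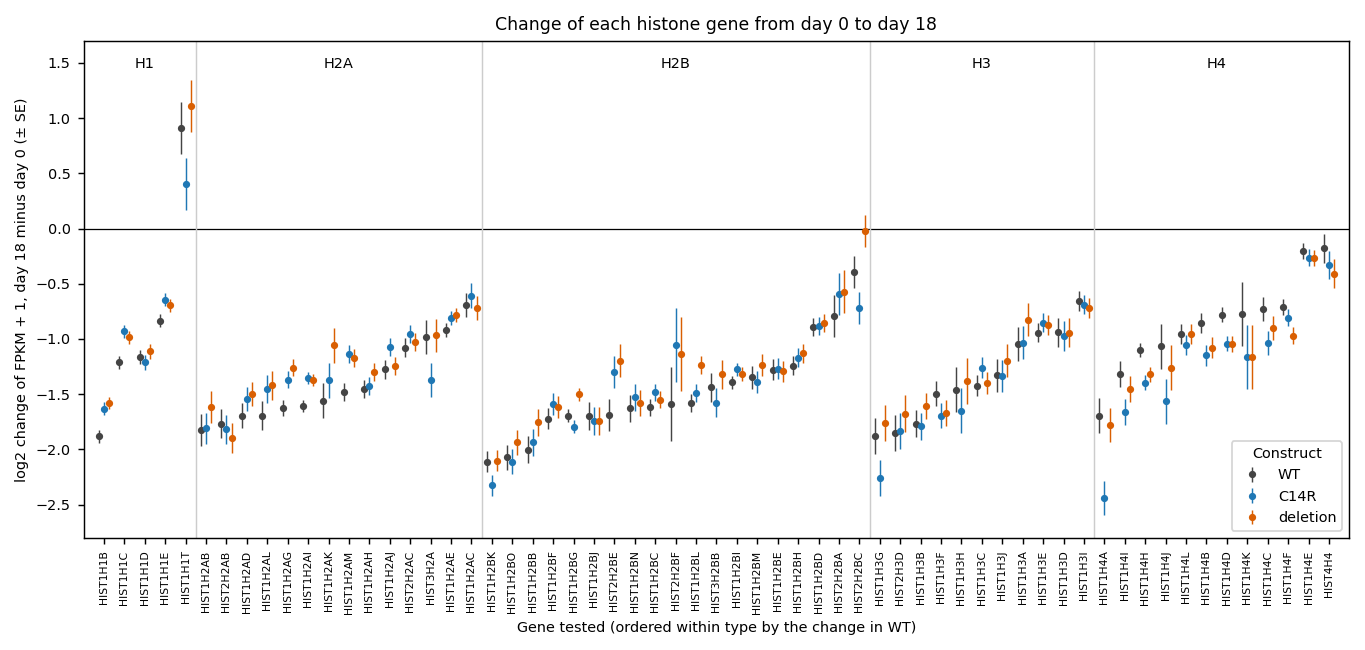
Change of each of the 61 tested copies from day 0 to day 18, as the log2 change of FPKM + 1 with its standard error (points and bars), in WT, C14R and the deletion, ordered within each histone type by the change in WT. All but HIST1H1T lie below 0 in all 3 lines, HIST1H2BK among the lowest and HIST1H4E and HIST4H4 close to 0.

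Linker histones split. The 4 abundant H1 genes fell in all 3 lines, and HIST1H1T, the form known from testis, was higher at day 18 in WT and the deletion. HIST1H1B, which encodes H1.5, had 535, 524 and 507 FPKM in the day 0 libraries and 154, 141 and 129 in those of day 18 in WT (log2 change -1.88, SE 0.057, limma adjusted p = 9.8e-15). Its values were 521, 525 and 526 and then 181, 159 and 167 in C14R, and 501, 501 and 541 and then 178, 171 and 166 in the deletion. In each line the 3 libraries of day 18 lay far below those of day 0. HIST1H1C, at 576, 554 and 547 FPKM in the day 0 libraries and 261, 236 and 227 in those of day 18 in WT, fell by less (log2 change -1.21, SE 0.06, limma adjusted p = 6.4e-12). HIST1H1E, which encodes H1.4, fell by the least of the 4, from 331, 345 and 329 FPKM to 207, 179.9 and 176 in WT (log2 change -0.84, SE 0.059, limma adjusted p = 8.6e-10).

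HIST1H1T had 4.65, 1.87 and 1.84 FPKM in the day 0 libraries and 5.87, 4.52 and 7.1 in those of day 18 in WT (log2 change 0.91, SE 0.24, limma adjusted p = 0.0023), and the 2 groups overlapped because replicate 1 of day 0 was high. In the deletion it had 2.88, 2.36 and 1.36 and then 5.08, 7.07 and 5.33, without overlap (log2 change 1.11, SE 0.24, limma adjusted p = 0.00043). In C14R the values were 4.13, 3.01 and 2.7 and then 4.47, 5.22 and 4.19 (log2 change 0.40, SE 0.24, limma adjusted p = 0.13). The C14R change passed the threshold when only the libraries compared were fitted (limma adjusted p = 0.028) and when small RNA genes were left out (limma adjusted p = 0.037). The difference between the lines missed it, with limma adjusted p = 0.91 for the interaction of C14R with day.

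All 14 tested H2A genes fell in all 3 lines, with a median change of -1.52 in WT, -1.37 in C14R and -1.25 in the deletion. HIST1H2AE, the most abundant, had 636, 594 and 600.5 FPKM in the day 0 libraries and 355, 320.4 and 296 in those of day 18 in WT (log2 change -0.92, SE 0.063, limma adjusted p = 6.1e-10). HIST1H2AG, a neighbour of HIST1H2BJ, had 414, 375 and 400.4 FPKM in the day 0 libraries and 138, 133 and 113 in those of day 18 (log2 change -1.62, SE 0.075, limma adjusted p = 2.9e-12). Both sets of groups were separated, but HIST1H2AE kept a larger part of its level (53.1%) than HIST1H2AG (32.3%). From the chromosome 1 cluster, HIST2H2AB had 137, 139.6 and 133 FPKM in the day 0 libraries and 49, 35.4 and 35.5 in those of day 18 in WT (log2 change -1.76, SE 0.14, limma adjusted p = 2.6e-09), and HIST2H2AC had 296, 283 and 299.5 FPKM in the day 0 libraries and 148, 142 and 126 in those of day 18 (log2 change -1.08, SE 0.083, limma adjusted p = 2.6e-09). Remaining H2A levels ranged from 28.0% to 62.4% of day 0 in WT, and the highest was that of HIST1H2AC.

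H2B held the largest falls in WT. All 19 tested H2B genes fell in WT and in C14R, and 18 in the deletion, with medians of -1.59, -1.48 and -1.32. HIST1H2BK had 113, 124 and 111 FPKM in the day 0 libraries and 26.1, 29.2 and 23.2 in those of day 18 in WT (log2 change -2.11, SE 0.094, limma adjusted p = 1.7e-12). Its values went from 113, 128 and 131 to 23.3, 22.8 and 25.6 in C14R and from 127, 117 and 142 to 28.3, 26.2 and 33.4 in the deletion, so that a small part of the level was left in each line (22.6%, 19.3% and 22.7%). A part of the HIST1H2BK sequence is shared with H2BFS, and 25.9% of its windows are unique.

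HIST1H2BO had 121, 109 and 124 FPKM in the day 0 libraries and 30.6, 29 and 23 in those of day 18 in WT (log2 change -2.07, SE 0.11, limma adjusted p = 2.9e-11). HIST1H2BB had 166, 161 and 164 FPKM in the day 0 libraries and 52.4, 31.4 and 39.2 in those of day 18 (log2 change -2.00, SE 0.12, limma adjusted p = 1.3e-10). Both showed separated groups in each line. The more abundant HIST1H2BC had 560, 558 and 566 FPKM in the day 0 libraries and 209, 182 and 159 in those of day 18 (log2 change -1.62, SE 0.077, limma adjusted p = 4.4e-12), and HIST1H2BD had 547, 550.5 and 565 FPKM in the day 0 libraries and 331, 287 and 279 in those of day 18 (log2 change -0.89, SE 0.083, limma adjusted p = 3.4e-08). HIST1H2BC and HIST1H2BD began at like levels and ended apart. The transcribed pseudogene HIST2H2BC, by contrast, went from 7.65, 9.88 and 10.02 FPKM to 8.51, 11.1 and 7.63 in the deletion (log2 change -0.02, SE 0.15, limma adjusted p = 0.9).

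HIST2H2BF, on chromosome 1 at 149782689 to 149812373, was the most abundant copy at day 0 in WT and had the highest coefficient of variation of the tested copies in WT (42.4%) and in the deletion (40.8%) at day 18. In WT it had 1135, 1118 and 1069 FPKM in the day 0 libraries and 541, 212 and 431 in those of day 18 (log2 change -1.59, SE 0.33, limma adjusted p = 0.00038). In C14R it had 1102, 1084 and 1113 and then 528, 489 and 575 (log2 change -1.05, SE 0.33, limma adjusted p = 0.0091). In the deletion it had 537, 1048 and 1161 and then 518, 224 and 528 (log2 change -1.14, SE 0.33, limma adjusted p = 0.0055). Replicate 1 of the deletion at day 0 and replicates 2 of WT and of the deletion at day 18 lay well below the other libraries of their groups. Without WT replicate 2 of day 18 the change in WT was -1.20, and without deletion replicate 2 of day 18 that in the deletion was -0.73 (limma adjusted p = 0.0029 and 0.045). The gene overlaps FCGR1A and AC243772.2 in the annotation.

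All 11 tested H3 genes fell in all 3 lines, with medians of -1.42, -1.33 and -1.38. HIST1H3B had 480.3, 507 and 496 FPKM in the day 0 libraries and 176, 139.8 and 123 in those of day 18 in WT (log2 change -1.76, SE 0.12, limma adjusted p = 5.2e-10). HIST1H3G fell in C14R from 115, 155 and 129 FPKM to 19.9, 29.2 and 32.9 (log2 change -2.26, SE 0.16, limma adjusted p = 1.1e-09) and in WT from 143, 129 and 115 to 43.5, 30.6 and 30.2 (log2 change -1.88, SE 0.16, limma adjusted p = 1.2e-08), and the difference between the lines missed the threshold (limma adjusted p = 0.89). The groups of each gene were separated. HIST2H3D had 278, 269 and 280.2 FPKM in the day 0 libraries and 88.1, 82.5 and 59.6 in those of day 18 in WT (log2 change -1.85, SE 0.16, limma adjusted p = 1.8e-08), with 19.6% of its windows unique. HIST1H3E, among the 3 most abundant H3 genes, had 294, 290.4 and 284 FPKM in the day 0 libraries and 164, 151 and 137 in those of day 18 (log2 change -0.94, SE 0.088, limma adjusted p = 3.8e-08), a smaller fall.

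H4 had the median closest to 0 of the 5 types in WT. In both variant lines the median H1 gene kept more than the median H4 gene, at 52.5% in C14R and 50.5% in the deletion. These differences between types were not tested. Of the 12 tested H4 genes, 11 fell in WT and 12 in each variant line, with medians of -0.82, -1.10 and -1.06. Without C14R replicate 1 of day 18, 11 fell in C14R. With all libraries, the median H4 gene kept 57.0% of its level in WT, 46.7% in C14R and 47.9% in the deletion. HIST1H4E had 720.3, 779 and 769 FPKM in the day 0 libraries and 752, 646 and 579.9 in those of day 18 in WT, with overlapping groups (log2 change -0.20, SE 0.074, limma adjusted p = 0.02). In C14R it had 762, 819 and 736 and then 658, 609 and 664 (log2 change -0.26, SE 0.074, limma adjusted p = 0.0043). In the deletion it had 860.4, 773 and 813 and then 698, 673 and 662 (log2 change -0.27, SE 0.074, limma adjusted p = 0.0039). These small falls depended on the scaling: with small RNA genes left out the change was 0.004 in WT, -0.076 in C14R and -0.045 in the deletion, and none passed the threshold (limma adjusted p = 0.96, 0.3 and 0.54). The call in WT was also lost when only the WT libraries were fitted (limma adjusted p = 0.061) and without replicate 2 or 3 of day 0 (0.068 and 0.057) or of day 18 (0.055 and 0.15).

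HIST1H4C had 1008, 1026 and 1001 FPKM in the day 0 libraries and 781, 549.6 and 532 in those of day 18 in WT (log2 change -0.73, SE 0.11, limma adjusted p = 1.1e-05), and replicate 1 of day 18 was the highest of its group. HIST1H4B had 802, 748 and 741 FPKM in the day 0 libraries and 502, 407 and 366 in those of day 18 (log2 change -0.86, SE 0.093, limma adjusted p = 2.5e-07). HIST4H4, the single gene on chromosome 12, had 50.8, 44.3 and 47.2 FPKM in the day 0 libraries and 34.4, 46.8 and 45 in those of day 18 in WT, with overlapping groups (log2 change -0.18, SE 0.13, limma adjusted p = 0.22), and it fell in both variant lines (log2 change -0.33 and -0.41). Without C14R replicate 1 of day 18 the call in C14R was lost (log2 change -0.16, limma adjusted p = 0.21). HIST1H4A, much less abundant, stood at the other end of the type. In C14R it went from 116, 143 and 123 FPKM to 19.1, 20.1 and 30.01 (log2 change -2.44, SE 0.16, limma adjusted p = 2.1e-10), and in WT from 114, 126 and 105 to 36, 42.2 and 27.6 (log2 change -1.69, SE 0.16, limma adjusted p = 2.8e-08).

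Summed over each type, the levels moved in the same way. The sum over all 71 genes was 17290, 17170 and 17020 FPKM in WT at day 0 and 8746, 7322 and 6944 at day 18, and over all lines it ranged from 16820 to 18520 at day 0 and from 6944 to 8746 at day 18. The sum at day 18 was 44.7% of day 0 in WT, 44.6% in C14R and 46% in the deletion. H1 kept 41.3%, H2A 40.3%, H2B 36.9%, H3 39.4% and H4 60.3% in WT. In C14R these were 47.1%, 44.2%, 40.2%, 38.8% and 51.8%, and in the deletion 47.2%, 44.8%, 40.9%, 40.9% and 53.9%. H4 therefore made up a larger share of the sum at day 18 (31.6% to 37.3% over the 9 libraries) than at day 0 (27.2% to 29.8%). H2B made up a smaller one (23.9% to 28.7% against 28.6% to 32.0%). The lowest H2B shares were those of deletion replicate 1 at day 0 and WT replicate 2 at day 18. In both libraries HIST2H2BF lay well below the others of its group. That deletion library also had the highest H4 share of day 0 (29.8%). At day 18 the H4 share was 36.9% ± 0.38 in WT, 32.1% ± 0.53 in C14R and 34.0% ± 0.96 in the deletion (mean and SD of 3 libraries), and no library of 1 line overlapped those of another. At day 0 it was 27.4% ± 0.20 in WT, 27.7% ± 0.55 in C14R and 29.04% ± 0.71 in the deletion, where the libraries of the deletion (28.5% to 29.8%) lay above those of WT (27.2% to 27.6%) and C14R (27.2% to 28.3%). The deletion thus stood above WT at day 0 and below it at day 18. No test was made of sums or shares over members.

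**Figure D3:**
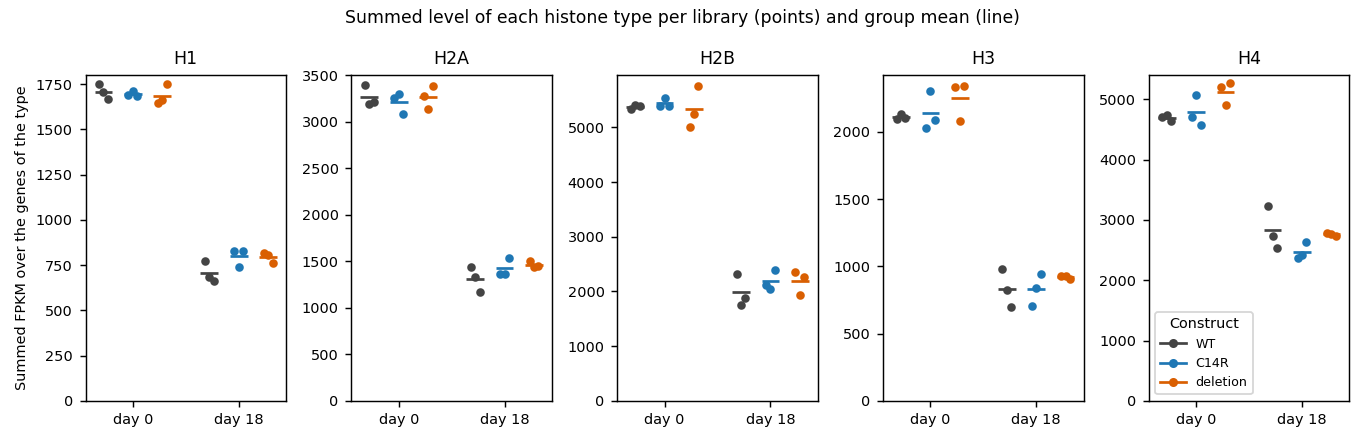
Summed FPKM of the genes of each histone type in each library (points) with the mean of the 3 libraries (lines), at day 0 and day 18 in WT, C14R and the deletion; each panel starts at 0. Every day 18 library lies below every day 0 library for each type, and H4 keeps the largest part of its level.

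Medians by position and sequence are given next, and their differences were not tested. In WT the median change was -1.19 over 30 tested copies in the distal part of the chromosome 6 cluster, -1.48 over 21 in its proximal part, and -1.59 over the 7 tested HIST2 genes. These 3 medians were -1.19, -1.42 and -1.05 in C14R and -1.12, -1.26 and -1.14 in the deletion, so the HIST2 genes had the lowest median in WT only. Copies whose promoter holds the octamer had a median of -1.63 in WT (23 genes), those with CCAAT -1.48 (47 genes), and those without CCAAT -0.78 (7 genes, all of H4). In C14R and the deletion these medians were -1.39 and -1.32 with the octamer, -1.37 and -1.29 with CCAAT, and -1.15 and -1.08 without CCAAT. Only H2A and H2B promoters hold the octamer, and the 7 tested H2A and H2B copies whose promoter lacks it had medians of -1.56 in WT, -1.37 in C14R and -1.23 in the deletion, near those of the copies with it. The 50 copies with at least 50% unique windows had a median of -1.37, and the 11 with fewer -1.27. The 13 copies that overlap another gene had -1.48, and the 48 others -1.33. The 6 copies listed as known to give polyadenylated RNA as well fell in each line, with medians of -1.45 in WT, -1.12 in C14R and -1.09 in the deletion.

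H2A and H2B genes often lie head to head and share the region between their starts. There were 11 such pairs, with starts 219 to 331 bases apart, and both genes were tested in 10 of them. The H2B gene had the lower log2 change in 9 of the 10 pairs in WT, although in 3 of those 9 the difference was under 0.1. HIST1H2BC changed by -1.62 beside -0.69 for its partner HIST1H2AC, the widest gap. HIST1H2BG changed by -1.70 beside -0.92 for HIST1H2AE, and HIST1H2BK by -2.11 beside -1.45 for HIST1H2AH. In the exception, HIST1H2BL changed by -1.58 and HIST1H2AI by -1.60. The levels of partners at day 0 were not alike (Pearson r = 0.008 and Spearman rho = -0.32 over 10 pairs), and their changes in WT had r = 0.33 and rho = 0.42. Both are descriptions, since the pairs share libraries and normalization.

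The machinery of histone supply was described next, from lists chosen with earlier results of these data known. Of 22 listed genes for histone transcription and 3' end processing, 20 were tested. In WT 11 fell and 4 rose, with a median change of -0.24, where 34% of all tested genes fell and 38.2% rose. RNU7-1 was listed at 0 in all libraries. SLBP, which binds the stem-loop, had 23 ± 1.25 FPKM at day 0 and 17.5 ± 0.96 at day 18 in WT (SD, n = 3; log2 change -0.37, limma adjusted p = 1.7e-05). NPAT, the activator of histone gene transcription, had 14.6 ± 0.331 FPKM at day 0 and 12.7 ± 0.731 at day 18 in WT (SD, n = 3; log2 change -0.18, limma adjusted p = 0.0063). Both falls were smaller than that of the median histone copy. E2F1, a factor of entry into DNA replication, had 9.96 ± 0.749 FPKM at day 0 and 3.65 ± 0.959 at day 18 in WT (SD, n = 3; log2 change -1.26, limma adjusted p = 3.2e-08). The octamer-binding POU2F1 rose by 0.18 (limma adjusted p = 0.0029), as did the exonuclease XRN1 by 0.35 (limma adjusted p = 0.00021).

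Among 19 histone chaperones, which carry histones to DNA, 14 fell and 2 rose in WT, with a median of -0.38. Of all tested genes, 34% fell and 38.2% rose. ASF1B had 9.17 ± 0.36 FPKM at day 0 and 2.75 ± 0.317 at day 18 in WT (SD, n = 3; log2 change -1.44, limma adjusted p = 1.4e-09). Its paralog ASF1A had 12.6 ± 0.503 FPKM at day 0 and 13.2 ± 1.12 at day 18 in WT (SD, n = 3; log2 change 0.06, limma adjusted p = 0.46), which did not pass the threshold. HJURP, the chaperone of the centromeric CENPA, had 12.2 ± 0.553 FPKM at day 0 and 3.04 ± 0.168 at day 18 in WT (SD, n = 3; log2 change -1.70, limma adjusted p = 4.4e-14). ATRX, which works in deposition of H3.3 outside replication, had 68 ± 1.15 FPKM at day 0 and 83.5 ± 5.53 at day 18 in WT (SD, n = 3; log2 change 0.29, limma adjusted p = 0.00071) and rose.

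Of the 13 listed histone variant genes outside the clusters, 11 were tested, and 6 fell and 3 rose in WT. Over all tested genes, 34% fell and 38.2% rose. H2AFZ, which encodes H2A.Z, had 321 ± 15.4 FPKM at day 0 and 119 ± 6.36 at day 18 in WT (SD, n = 3; log2 change -1.42, limma adjusted p = 1.5e-14). H2AFX, which encodes the H2A.X of DNA damage signalling, had 30.8 ± 4.35 FPKM at day 0 and 9.73 ± 1.52 at day 18 in WT (SD, n = 3; log2 change -1.57, limma adjusted p = 3.4e-09). H1F0, the linker histone H1.0 known from cells that have stopped dividing, had 93.5 ± 2.33 FPKM at day 0 and 149 ± 10.1 at day 18 in WT (SD, n = 3; log2 change 0.67, limma adjusted p = 9.3e-10). It was one of the 3 that rose, beside H2AFJ and H2AFV. H3F3B, one of the genes for the replication-independent H3.3, had 206 ± 2.81 FPKM at day 0 and 202 ± 5.25 at day 18 in WT (SD, n = 3; log2 change -0.03, limma adjusted p = 0.45).

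DNA replication and cell division genes fell together with the clustered histones. All 18 listed replication genes fell in each line, with a median of -1.36 in WT, -1.20 in C14R and -1.25 in the deletion. Of all tested genes, 34%, 35% and 34.4% fell in these lines. PCNA, the sliding clamp of replication, had 105 ± 0.982 FPKM at day 0 and 35.9 ± 1.94 at day 18 in WT (SD, n = 3; log2 change -1.52, limma adjusted p = 1.5e-12). All 8 listed proliferation genes fell in each line, with medians of -1.52, -1.33 and -1.38. MKI67 had 49.8 ± 0.653 FPKM at day 0 and 19.6 ± 0.922 at day 18 in WT (SD, n = 3; log2 change -1.30, limma adjusted p = 3.1e-11), so its RNA was still present at day 18. The summed level of the 8 ranged from 309.1 to 339 FPKM at day 0 and from 112.5 to 144.7 at day 18, and that of the 18 replication genes from 569.8 to 606.4 and from 214.1 to 264.3. The part that a lower share of dividing cells has in the fall of the histone genes was not tested.

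Markers of other cells moved with day as well. All 7 tested of 9 mesenchymal markers fell in each line, and none of the 9 was at 0 in all libraries. Their summed level was 524.3 to 660.1 FPKM at day 0 and 40.65 to 57.98 at day 18, and the part of this in the histone results was not tested. All 6 neuron maturation genes rose in each line, where 38.2%, 37.9% and 38.6% of all tested genes rose in WT, C14R and the deletion. The 4 glia markers summed to 2.89 to 4.41 FPKM at day 0 and 6.85 to 8.96 at day 18, and 3 blood markers to at most 0.825, with HBB at 0. Of the neuroblastoma markers, HAND2 and DBH were present on both days, and TH lay at 0 to 0.0804 FPKM at day 0 and 0.289 to 1.03 at day 18. The small nucleolar RNA SNORD3A took 6.88% to 58.6% of the FPKM sum of day 0 libraries and 1.01% to 15.1% at day 18. Without small RNA genes, the clustered histones made up 3.82% to 4.14% of that sum at day 0 and 1.86% to 2.24% at day 18. Steps in low values gave a relative depth of 59.0% to 84.5% of the deepest library at day 0 and 81.9% to 100% at day 18.

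**Figure D4:**
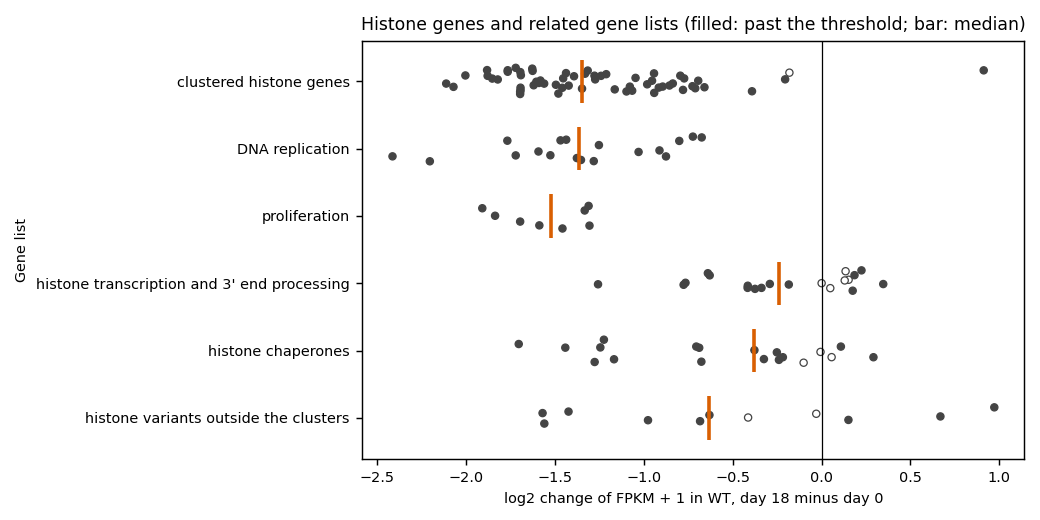
Log2 change of FPKM + 1 from day 0 to day 18 in WT for the tested clustered histone genes and 5 lists (points, one per gene, spread vertically for sight; filled when past the threshold; bar, median). The histone genes have a median of -1.35, close to those of DNA replication (-1.36) and proliferation (-1.52), and the processing list lies around -0.24.

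Between constructs, no clustered histone gene passed the threshold. With limma and Benjamini-Hochberg adjustment, 0 of 61 were called in C14R against WT at day 0 (0% of all tested genes called) or day 18 (0.0363%), 0 in the deletion against WT at day 0 (0.029%) or day 18 (0.0725%), and 0 in the interaction of C14R (0%) or the deletion (0.0145%) with day. All comparisons of a variant share the WT libraries, so their values are given side by side only. At an unadjusted p under 0.05, 1 histone gene was lower in C14R at day 0 (2.81% of all genes differed), HIST1H2AI, named after its value was seen. In the deletion at day 0 it was 4 genes (6.22%), all higher, namely HIST1H2AJ, HIST1H4D, HIST1H4H and HIST1H3C. At day 18 it was 18 genes in C14R, 8 higher and 10 lower (11.1% of all genes, 5.36% higher and 5.77% lower), and 17 in the deletion, 16 higher and 1 lower (11.4%, 5.77% and 5.67%). Without C14R replicate 1 of day 18 it was 17 genes in C14R, 10 higher and 7 lower (12.4% of all genes). For the interactions it was 10 (5.73%) and 12 (7.36%).

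At day 0, 36 of the 61 copies lay above WT in C14R (48.3% of all tested genes did) and 41 in the deletion (49.5%). Outside H4 the count was 29 of 49 in each. The median log2 difference from WT was 0.02 in C14R, where 3 histone genes lay above WT without overlap (4.14% of all genes) and 4 below (5.33%), and 0.05 in the deletion. In the deletion all 12 tested H4 genes lay above 0, with a median of 0.13, beside 1 of 5 H1, 6 of 14 H2A, 12 of 19 H2B and 10 of 11 H3 genes. In C14R, 7 of 12 H4 genes did. HIST1H4D had 503, 509 and 540.3 FPKM in the deletion and 443, 454 and 444 in WT, without overlap (log2 change 0.21, SE 0.069, limma adjusted p = 0.76). At day 0, 11 histone genes of the deletion lay above WT without overlap, against 8.68% of all genes, and 0 lay below (9.28%).

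At day 18 in C14R, all 12 tested H4 genes lay below WT, with a median of -0.21, and 34 of the 49 other copies lay above it, where 49.1% of all tested genes did. By type, those above were 3 of 5 H1, 13 of 14 H2A, 13 of 19 H2B and 5 of 11 H3 genes. Without C14R replicate 1 of day 18, HIST1H4L lay above WT, which left 11 of 12 H4 genes below it (median -0.24). The counts above were then 4 of 5 H1, 12 of 14 H2A, 15 of 19 H2B and 10 of 11 H3 genes, 41 of 49 in all (50.9% of all tested genes). The median H3 gene stood at 99.5% of WT with all libraries, so the side on which H3 lay turned on that library. HIST1H4B had 294, 331 and 364 FPKM in C14R and 502, 407 and 366 in WT, just separated (log2 change -0.36, SE 0.093, limma adjusted p = 0.15). HIST1H4C had 431, 489 and 528 and 781, 549.6 and 532, again just separated (log2 change -0.34, SE 0.11, limma adjusted p = 0.22). HIST1H4A had 19.1, 20.1 and 30.01 and 36, 42.2 and 27.6, with overlap (log2 change -0.60, SE 0.16, limma adjusted p = 0.15). On the other side, HIST1H1B had 181, 159 and 167 in C14R and 154, 141 and 129 in WT, without overlap (log2 change 0.26, SE 0.057, limma adjusted p = 0.12). In all, 5 histone genes lay above WT without overlap and 6 below, against 5.44% and 5.64% of all genes, and without that replicate 7 and 7 did.

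In the deletion at day 18, 50 of the 61 copies were above 0, where 51.8% of all tested genes were, and by type these were 4 of 5 H1, 14 of 14 H2A, 18 of 19 H2B, 10 of 11 H3 and 4 of 12 H4 genes. HIST1H1B had 178, 171 and 166 FPKM in the deletion beside the WT values above, without overlap (log2 change 0.28, SE 0.057, limma adjusted p = 0.092). HIST1H2BL had 130.3, 105 and 102 in the deletion and 92.7, 82.5 and 78.9 in WT, without overlap (log2 change 0.40, SE 0.081, limma adjusted p = 0.092). HIST1H1E had 215, 229.6 and 209 and 207, 179.9 and 176, also separated (log2 change 0.22, SE 0.059, limma adjusted p = 0.19). In all, 11 lay above WT without overlap (10.4% of all genes) and 1, HIST1H4F, below (8.53%).

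The count of 0 at day 18 depended on the weights and on single libraries. With array weights from limma, 6 copies passed in C14R (HIST1H1B, HIST1H1C, HIST1H1E, HIST1H2AG and HIST1H2AJ higher, HIST1H4H lower) and 5 in the deletion (HIST1H1B, HIST1H1E, HIST1H2AI, HIST1H2AJ and HIST1H2BL, all higher). Without C14R replicate 2 of day 18, 3 passed in C14R (HIST1H1B, HIST1H1C and HIST1H1E). Without WT replicate 1 of day 18, HIST1H1B passed in the deletion, and without C14R replicate 1 of day 18, which enters that comparison only through the shared estimate of spread, HIST1H1B and HIST1H2BL did. The smallest limma adjusted p of the interactions was 0.65 for C14R and 0.32 for the deletion.

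**Figure D5:**
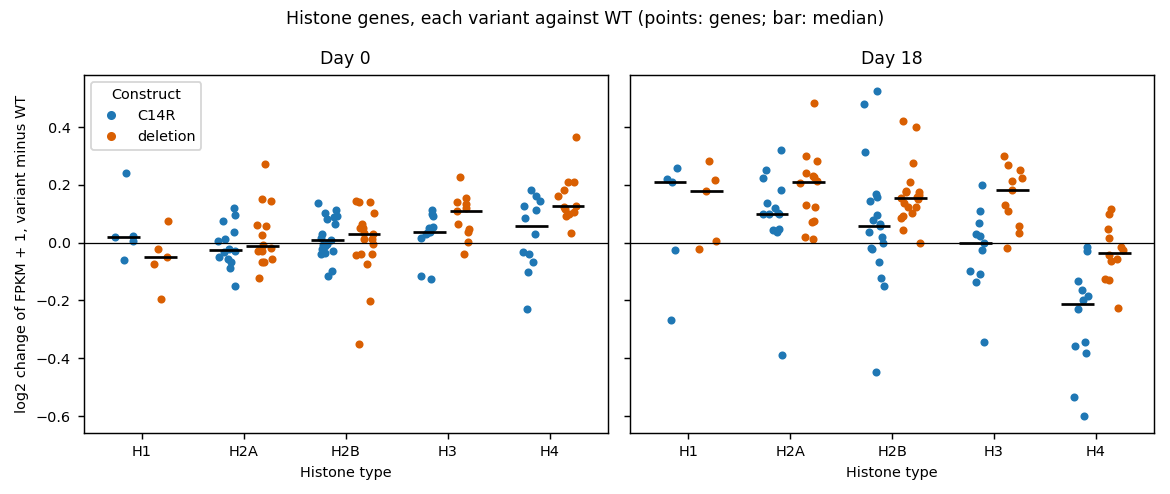
Log2 change of FPKM + 1 of each tested histone gene (points, spread sideways for sight) in C14R and in the deletion against WT, at day 0 and at day 18, by histone type (bar, median); both share the WT libraries. None passed the threshold, and at day 18 all 12 H4 genes of C14R lie below 0 while the H2A genes of the deletion all lie above it.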

How the data were processed

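RNA-seq of 18 libraries of SH-SY5Y cells was used, in 6 groups of 3. Libraries were NEBNext Ultra libraries of DNase-treated TRIzol RNA without ribosomal RNA, per the labels' protocols. The authors deposited 1 table of FPKM values for 26372 genes. The submitters' processing notes name TopHat2, STAR, Cufflinks 2.2.1 and hg38, with no role or order; the annotation, the use of strand and the handling of reads that fit several copies are not given in the sources used here. No counts were used, so a count test was not made, and the number of reads behind a value is unknown.

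Genes with a mean of at least 1 FPKM (13785) were tested on log2(FPKM + 1) with limma 3.58.1 in R 4.3.3 with a mean-dependent prior, in 1 fit of all libraries, with Benjamini-Hochberg adjustment within each of 9 comparisons and a threshold of 0.05. Because of the pseudocount, changes of low genes come out too small. The script was tested on simulated data. The members and the gene lists were chosen with earlier results of these data known. Values of single libraries, in WT at least, were given for the 3 most abundant genes of each type, for the 4 largest separated rises and falls of each day comparison and for genes past the threshold between constructs; others were chosen after their values were seen. Same-numbered libraries did not deviate together (45 pairs, correlations from -0.36 to 0.17, 6 over 0.1), so the numbers were not used as pairs. The alternatives tried were median-of-ratios scaling, a minimum of 5 FPKM, no minimum, a pseudocount of 0.1, small RNA genes left out, array weights, a replicate block, only the libraries compared, and leaving out each library. Promoters came from RefSeq on GRCh38.p14 and transcripts from GENCODE 29.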

Additional observations from a re-analysis of the deposited data

How the results depend on the processing

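The histone genes fell from day 0 to day 18 under every alternative run, with 56 to 59 copies lower in WT, 57 to 60 in C14R and 56 to 59 in the deletion. Counted in either direction, 57 to 61, 58 to 61 and 57 to 61 passed the threshold, and 57 to 60, 59 to 60 and 59 to 60 when 1 library was left out. Of 921 alternatives for named log2 changes, 911 kept their direction and side of the threshold, 7 were weaker, 2 were stronger and 1 reversed: HIST1H4E in WT, at 0.004137 with small RNA genes left out. The 7 weaker ones were all of HIST1H4E and the 2 stronger ones of HIST1H1T in C14R. The 921 covered only the members given by rule with single-library values, so HIST4H4 and HIST2H2BC were not among them. In C14R, HIST4H4 lost its call without replicate 1 of day 18 (log2 change -0.16, limma adjusted p = 0.21). With small RNA genes left out, the day 18 sums in WT were 47.66% of day 0 for H1, 46.5% for H2A, 42.59% for H2B and 69.59% for H4; the rescaling raises day 18 values together relative to day 0.

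Between constructs, the counts of 0 at day 0 and for both interactions held under every alternative run. At day 18, array weights gave 6 copies in C14R and 5 in the deletion. Leaving out 1 library gave 0 to 3 in C14R and 0 to 1 in the deletion. Leaving out C14R replicate 1 of day 18, chosen after seeing the data, gave 2 in the deletion. The cause was not tested. With the replicate block, 60 copies passed in each day comparison and 0 in the 6 others, so the block changed no count. Values of copies that share sequence, and of those under 3 FPKM, are limited by read assignment and by depth that the FPKM values do not give.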

Other observations

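The median copy differed more between replicate libraries at day 18 than at day 0 in WT and C14R, and by little in the deletion. The median coefficient of variation of the 61 tested copies was 4.7% in WT, 6.0% in C14R and 6.6% in the deletion at day 0, and 14.2%, 11.6% and 7.2% at day 18. No test was made of this difference, and the spread of all tested genes was not set beside it. The levels were also lower at day 18. In WT at day 18, the sum over all copies was 8746, 7322 and 6944 FPKM, so replicate 1 lay above the others.

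HIST2H2BF and HIST2H2BA were low in the same libraries. HIST2H2BA is annotated as a transcribed pseudogene on chromosome 1 at 121108210 to 121117257, away from the cluster there that holds HIST2H2BF. Over the 18 libraries of both days HIST2H2BA had a mean of 32.96 FPKM. Its values in the other libraries of the groups named next are not given here. It measured 32.0 FPKM in replicate 1 of the deletion at day 0, 15.3 in replicate 2 of WT at day 18 and 19.8 in replicate 2 of the deletion at day 18, where HIST2H2BF was low as well. HIST2H2BE, of that cluster, measured 50.1 FPKM in the first of these (77.9 and 88.2 in the others of its group), 21.6 in the second (24.1 and 20.9) and 24.8 in the third (32.8 and 33.3), so it was the lowest of its group in the first and the third. This was noticed in the data and has no test. The sequences of these genes are partly shared with other HIST2 copies. HIST2H2BA, with 43.7% unique windows, shares most with HIST2H2BB (136 windows). HIST2H2BF shares most with HIST2H2BB as well (159 windows), and HIST2H2BE with HIST2H2BF (155 windows). The part of read assignment in these low values was not tested.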
